A study of Rattus norvegicus with 60 samples.

Results

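The neuropeptide precursor genes of the spinal cord were followed in rats with and without contusion injury and with and without methylprednisolone (MP), a synthetic glucocorticoid. They were 10 named genes (Sst, Tac1, Penk, Pdyn, Nts, Cck, Npy, Grp, Gal and Adcyap1) of the 14324 genes that the annotation of the array names with 1 symbol. A gene was taken up where the only symbol of a probe set equalled its name, and each of the 10 had exactly 1 probe set. RNA came from 60 female Long Evans rats aged 8 to 9 weeks, from 5 mm of thoracic cord at the lesion or, in sham rats, from cord without injury. The injury was made by a weight dropped on the cord after laminectomy. S-EtOH rats (16) had no injury and were given 70% ethanol, in which MP was dissolved for the other rats, so that every rat received ethanol. S-MP rats (14) had no injury and were given MP at 30 mg/kg. SCI-EtOH rats (16) had the injury and ethanol alone, and SCI-MP rats (14) had the injury and MP. Each group held 2 rats at each of 7 times from 2 to 48 h after medication, namely every 2 h up to 8 h and then 12, 24 and 48 h. The groups without MP held 2 more at 0 h, directly after the vehicle. The model holds young adult females, a lesion of 1 kind and the first 48 h.

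Neuropeptides are made as longer precursors, cut by convertases in the secretory pathway, stored in dense-core vesicles and released from neurons, where they act through G protein-coupled receptors. In the dorsal horn of the spinal cord they are made by small excitatory and inhibitory interneurons. They are released by these and by the endings of sensory neurons, and they tune the transmission of pain, itch and touch. Because the supply of new peptide depends on transcription, the genes of several of them are known to respond to neuronal activity and to axon damage.

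Each rat was 1 array, so that the number of rats limits the precision. The deposited log2 values lay near 0 for every probe set and were relative, so that the level of a gene could be compared between groups but not with the level of another gene, and the presence of a transcript in cord could not be read from them. A difference of 1 on this scale is a 2-fold difference of signal. Duplicate arrays of a group and time correlated over probe sets with group medians from 0.484 (S-MP) to 0.761 (SCI-MP). The duplicates of SCI-EtOH at 6 h stood apart from the rest at 0.161, and results of 2 to 6 h are given with and without 6 h. All 14 measured markers of neuron structure were lower in injured cord without MP, with a list median of -1.15 on the log2 scale. The mean of this list ran from 0.10 to 0.39 over the S-EtOH arrays and from -2.06 to -0.29 over the SCI-EtOH arrays after 0 h. Beside the neurons, all 8 neutrophil markers, all 5 of erythrocytes and platelets and 4 of 8 microglia markers rose, while all 6 astrocyte markers and 5 of 7 oligodendrocyte markers fell and 1 rose. Of the endothelial markers, Cldn5, Flt1 and Tek rose and Slco1c1 was not called. Over all genes, 35.1% were called higher and 27.5% lower in this comparison. In whole cord, fewer cells of a type and less RNA per cell cannot be told apart.

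The promoters of 4 members are shown because the results turn on these genes: Gal rose furthest over time in injured cord, Sst was the member that MP lowered in sham cord too, and Tac1 and Pdyn had the values most alike among the 10. They run from 250 bases before to 50 after a gene start in RefSeq (assembly GRCr8), 5′ to 3′ on the strand of the gene, and the table held such a sequence for 8 of the 10 members. The start used for Tac1 was that of 1 of several transcripts. Positions are counted from the start as +1 with no 0. Capitals mark the cAMP response element TGACGTCA in Sst, its core TGACG in Gal (read as CGTCA, on the other strand, in Tac1), and the TATA box TATAAA in Gal and Pdyn.
Sst (chr11:90461296-90461595, plus strand): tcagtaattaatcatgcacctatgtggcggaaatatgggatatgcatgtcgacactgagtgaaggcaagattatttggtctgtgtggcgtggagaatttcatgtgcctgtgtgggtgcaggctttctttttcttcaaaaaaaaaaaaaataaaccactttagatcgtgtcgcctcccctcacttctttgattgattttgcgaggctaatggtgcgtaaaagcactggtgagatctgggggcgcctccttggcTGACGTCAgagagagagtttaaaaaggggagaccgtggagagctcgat
Gal (chr1:210084523-210084822, minus strand): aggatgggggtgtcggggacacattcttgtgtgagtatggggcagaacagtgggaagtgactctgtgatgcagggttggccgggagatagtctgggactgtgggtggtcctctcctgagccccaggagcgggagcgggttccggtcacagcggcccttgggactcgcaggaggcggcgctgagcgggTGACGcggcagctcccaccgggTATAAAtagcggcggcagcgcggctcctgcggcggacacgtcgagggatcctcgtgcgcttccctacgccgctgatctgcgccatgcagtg
Tac1 (chr4:36645333-36645632, plus strand): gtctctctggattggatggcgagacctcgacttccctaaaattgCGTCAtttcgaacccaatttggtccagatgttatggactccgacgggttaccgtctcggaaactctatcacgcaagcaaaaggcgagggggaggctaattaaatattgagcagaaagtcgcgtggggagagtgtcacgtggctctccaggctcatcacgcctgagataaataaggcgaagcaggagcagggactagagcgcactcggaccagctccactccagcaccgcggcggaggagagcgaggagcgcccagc
Pdyn (chr3:137366454-137366753, minus strand): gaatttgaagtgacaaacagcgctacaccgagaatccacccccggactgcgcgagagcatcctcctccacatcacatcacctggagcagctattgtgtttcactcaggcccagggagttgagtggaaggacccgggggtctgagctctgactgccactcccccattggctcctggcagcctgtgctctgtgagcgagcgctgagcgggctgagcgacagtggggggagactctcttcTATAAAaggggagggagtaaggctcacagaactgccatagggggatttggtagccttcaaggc
In Sst the response element, to which CREB binds, lay at +3 to +10 of the RefSeq start used here, and other starts were not examined. In Gal the core lay at -63 to -59 and the TATA box at -41 to -36. In Tac1 the core lay at -206 to -202, and in Pdyn the TATA box lay at -13 to -8. TGACGTCA on either strand was held by 1.83% of 33469 promoters and by 1 of the 8 members. TGACG, which TGACGTCA contains, was held by 21.2% of promoters and by 5 of the 8 members, and TATAAA, searched on the strand of the gene, by 8.8% and by 4. The AP-1 site TGANTCA was held by 7.33% and by 1 member (Nts), and the palindromic glucocorticoid response element (AGAACA, 3 bases of any kind, TGTTCT) by 0.0149% and by no member. A match is a run of letters in this window and no measure of binding.

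**Figure D1:**
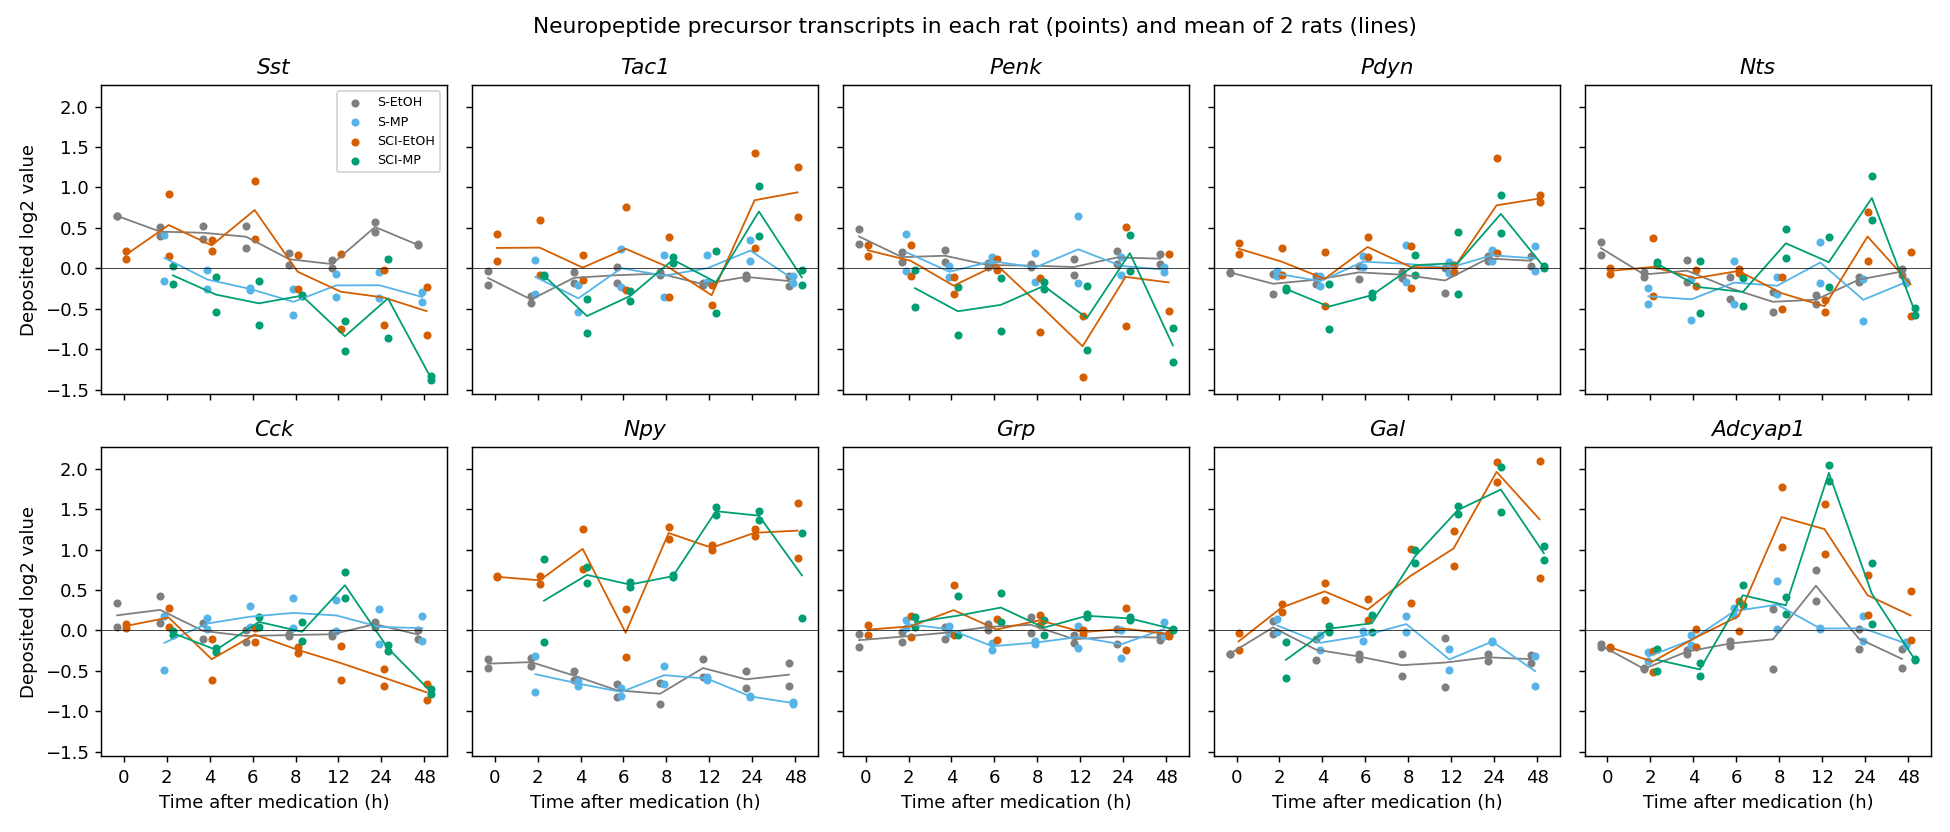
Deposited log2 value (relative, centred near 0 for each gene) of the 10 neuropeptide precursors against time after medication (hours, evenly spaced), with 1 point per rat and a line through the mean of the 2 rats of each group. Npy in SCI-EtOH and SCI-MP rats lies above all sham rats of the same medication after 0 h, Gal climbs to about 2 at 24 h in injured cord, and Adcyap1 peaks at 8 to 12 h.

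The first comparison asked what contusion did to these genes without MP, as SCI-EtOH minus S-EtOH over the 7 times after 0 h (14 rats against 14). Npy rose 2.79-fold, Gal 2.23-fold, Adcyap1 1.47-fold, Tac1 1.36-fold and Pdyn 1.25-fold. Penk fell 1.27-fold, Cck 1.26-fold and Sst 1.21-fold, while Nts and Grp did not pass the test. Thus 8 of the 10 precursors changed at an adjusted p under 0.05 (limma, Benjamini-Hochberg over 14324 genes), against 62.7% of all genes, so that the count alone does not set them apart. Of all genes 35.1% were called higher and 27.5% lower. The median difference of the 10 was 0.21 on the log2 scale beside 0.04 for all genes.

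Npy encodes neuropeptide Y, an inhibitory peptide of dorsal horn interneurons and of sympathetic fibres. Its log2 values in S-EtOH rats after 0 h ran from -0.91 over a median of -0.60 to -0.34. In SCI-EtOH rats they ran from -0.33 over a median of 1.02 to 1.57. No injured rat overlapped a sham rat, although the lowest injured value, at 6 h, lay just above the highest sham value. The difference was 1.48 (SE 0.09, adjusted p = 1.4e-15), and it was called at each time but 6 h, from 1.01 at 2 h to 1.99 at 8 h. Already at 0 h the SCI-EtOH rats had 0.66 and 0.67 against -0.36 and -0.47 in S-EtOH, a difference of 1.07 that did not pass the adjustment (adjusted p = 0.080).

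Markers of blood were higher in injured cord, as Npy was. All 5 measured genes of the erythrocyte and platelet list rose in SCI-EtOH over S-EtOH, where 35.1% of all genes were called higher. The list mean ran from -1.18 to -0.13 in S-EtOH and from 0.38 to 1.53 in SCI-EtOH. With MP it ran from -1.47 to -0.29 in sham and from -0.53 to 1.19 in injured rats. Over the 30 group and time means, Npy had a Pearson r of 0.90 with the platelet gene Pf4, 0.86 with the beta-globin Hbb, 0.85 with Alas2 and 0.75 with Ppbp. With the mean of the neuron structure list its r was -0.89. These means share the contrast between injured and sham cord. With MP in sham cord Hbb (-0.90) and Alas2 (-0.73) were lower and the rest of the list was not called, while Npy had -0.10. In injured cord Pf4 (-0.64), Alas2 (-0.59) and Slc4a1 (-0.56) were lower with MP, and Hbb and Ppbp were not called. The mean of Npy after 0 h was 0.89 in SCI-EtOH and 0.84 in SCI-MP. The part of blood in the Npy difference was not tested.

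Gal encodes galanin, a peptide that sensory neurons make in larger amounts after their axons are cut. In S-EtOH rats after 0 h it ran from -0.71 over a median of -0.30 to 0.11, and in SCI-EtOH rats from 0.12 over a median of 0.62 to 2.09. The groups did not overlap, again by a narrow margin at the low end. The difference was 1.15 (SE 0.10, adjusted p = 2.8e-12). Such complete separation upward was seen in 1.08% of all genes, and in Npy and Gal among the 10. Which cells of the cord held the Gal transcript was not tested.

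Adcyap1 encodes PACAP, a peptide that stimulates adenylate cyclase and is known to protect neurons. It stood out by its timing. In SCI-EtOH it was -0.52 and -0.25 at 2 h, 1.77 and 1.03 at 8 h, 1.56 and 0.94 at 12 h, and -0.12 and 0.49 at 48 h. S-EtOH rats had -0.48 and 0.26 at 8 h. At 12 h they had 0.36 and 0.74, the latter being the highest S-EtOH value of the series. The difference was called at 8 h (1.51, adjusted p = 1.7e-05) and 12 h (0.70, adjusted p = 0.027), and over the 7 times it was 0.56 (SE 0.09, adjusted p = 3.7e-06).

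Tac1, the precursor of substance P and neurokinin A, and Pdyn, the precursor of the dynorphins that act on the kappa opioid receptor, were called higher at 24 and 48 h and at no other single time. Tac1 in SCI-EtOH was 0.26 and 1.43 at 24 h and 1.25 and 0.63 at 48 h, while S-EtOH rats lay between -0.22 and -0.09 at these times. Pdyn in SCI-EtOH was 0.19 and 1.37 at 24 h and 0.83 and 0.90 at 48 h, against 0.04 to 0.15 in S-EtOH. At both times the injured rats lay above the sham rats for both genes, with differences of 0.95 and 1.10 for Tac1 and of 0.66 and 0.77 for Pdyn. Over the 7 times the differences were 0.44 for Tac1 (SE 0.12, adjusted p = 0.0015) and 0.32 for Pdyn (SE 0.09, adjusted p = 0.0034). With the injury difference at 0 h taken off they were 0.07 and 0.03, and neither was called. Duplicates differed widely in injured cord, with a pooled SD of 0.53 for Tac1 against 0.08 in S-EtOH.

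Penk, the precursor of the enkephalins, was lowest at 12 h, where SCI-EtOH rats had -0.59 and -1.34 against -0.08 and 0.11 in S-EtOH. This was its only time with a call (-0.98, adjusted p = 0.016), and without 12 h the difference over the other times was -0.24 and was no longer called. Cck, which encodes cholecystokinin, an opponent of opioid analgesia, reached -0.69 and -0.47 at 24 h and -0.86 and -0.67 at 48 h in SCI-EtOH, below every S-EtOH rat. Its difference over the 7 times was -0.33 (SE 0.07, adjusted p = 1.0e-04). Sst, the gene of somatostatin, an inhibitory peptide, was -0.69 and -0.02 at 24 h and -0.82 and -0.23 at 48 h in SCI-EtOH, against 0.28 to 0.57 in S-EtOH. Its difference over the 7 times was small (-0.28, SE 0.11, adjusted p = 0.027), and leaving out 1 rat at a time (-0.34 to -0.21) ended the call in 6 of 28 cases, namely the first SCI-EtOH rat of 2, 12, 24 and 48 h and the second of 6 and 8 h. Without 24 h it was -0.18 and without 48 h -0.19, neither called. Already at 0 h the SCI-EtOH rats had 0.11 and 0.22 for Sst against 0.65 and 0.65 in S-EtOH. With the injury difference at 0 h taken off, the Sst difference over the 7 times was 0.21 and not called. Penk, Cck and Sst followed the mean of the neuron structure list over the 30 means with a Pearson r of 0.71, 0.61 and 0.59. The other members had negative r, from -0.89 (Npy) and -0.87 (Gal) to -0.15 (Nts), and all these r share the injury contrast. The part of neuron loss in the fall of Penk, Cck and Sst was not tested.

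Nts, the gene of neurotensin, and Grp, which encodes gastrin-releasing peptide of the itch pathway, had differences of 0.09 each without MP (adjusted p = 0.44 and 0.18). Their 95% confidence intervals, from -0.11 to 0.29 and from -0.03 to 0.22, hold both no difference and a small rise. SCI-EtOH values of Grp ran from -0.24 to 0.56 and overlapped those of S-EtOH, from -0.17 to 0.17.

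The calls spread with time. At 0 h no member was called (limma; 1 at an unadjusted p under 0.05, Npy), where 0.0419% of all genes were. At 2 to 6 h Npy (1.10) and Gal (0.52) were higher, 2 of 10 against 35.1% of all genes. Without 6 h, Npy stayed called and Gal was 0.48 and lost its call. At 8 to 12 h Npy (1.74), Gal (1.26) and Adcyap1 (1.11) were higher and Penk (-0.73) lower, against 39% of all genes. At 24 to 48 h 7 of 10 were called, against 47.6% of all genes: Gal (2.01), Npy (1.80), Tac1 (1.02), Pdyn (0.71) and Adcyap1 (0.54) were higher and Sst (-0.84) and Cck (-0.69) lower.

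Single times rest on 2 rats against 2. For injury without MP, 5.25% of all genes were called at 2 h, 15.6% at 4 h, 11% at 6 h, 24.4% at 8 h, 31.6% at 12 h, 37.4% at 24 h and 34.9% at 48 h. Of the 10 precursors, Npy alone was called at 2 and 4 h and none at 6 h. At 8 h Npy, Gal and Adcyap1 were called, at 12 h these 3 and Penk, and at 24 and 48 h Npy, Gal, Tac1, Pdyn, Sst and Cck.

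The change between the early and the late difference was tested itself, as the injury difference at 24 and 48 h minus that at 2, 4 and 6 h. Gal gained 1.5 (SE 0.24, adjusted p = 8.4e-06) and Npy 0.70 (SE 0.22, adjusted p = 0.014), while Sst lost 0.93 (-0.93, SE 0.26, adjusted p = 0.0056) and Cck 0.54 (-0.54, SE 0.17, adjusted p = 0.012). These 4 of 10 compare with 31.4% of all genes. Tac1 (0.66, adjusted p = 0.074) and Pdyn (0.51, adjusted p = 0.084) did not pass this test. The call for Gal held in all 32 alternatives, from 0.84 to 1.86. After quantile normalization the value of Cck was -0.20 and that of Sst -0.63, neither called, and Cck also lost its call without 6 h (-0.46), 24 h (-0.57) or 48 h (-0.52). The gain of Npy turned to -0.01 after quantile normalization between arrays and lost its call without the second SCI-EtOH rat at 48 h (0.53). Without 6 h it was 0.51 and without 24 h 0.68, and neither was called. Taking off the difference at 0 h, which rests on 2 rats against 2, left Gal as the 1 member called over the 7 times.

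**Figure D2:**
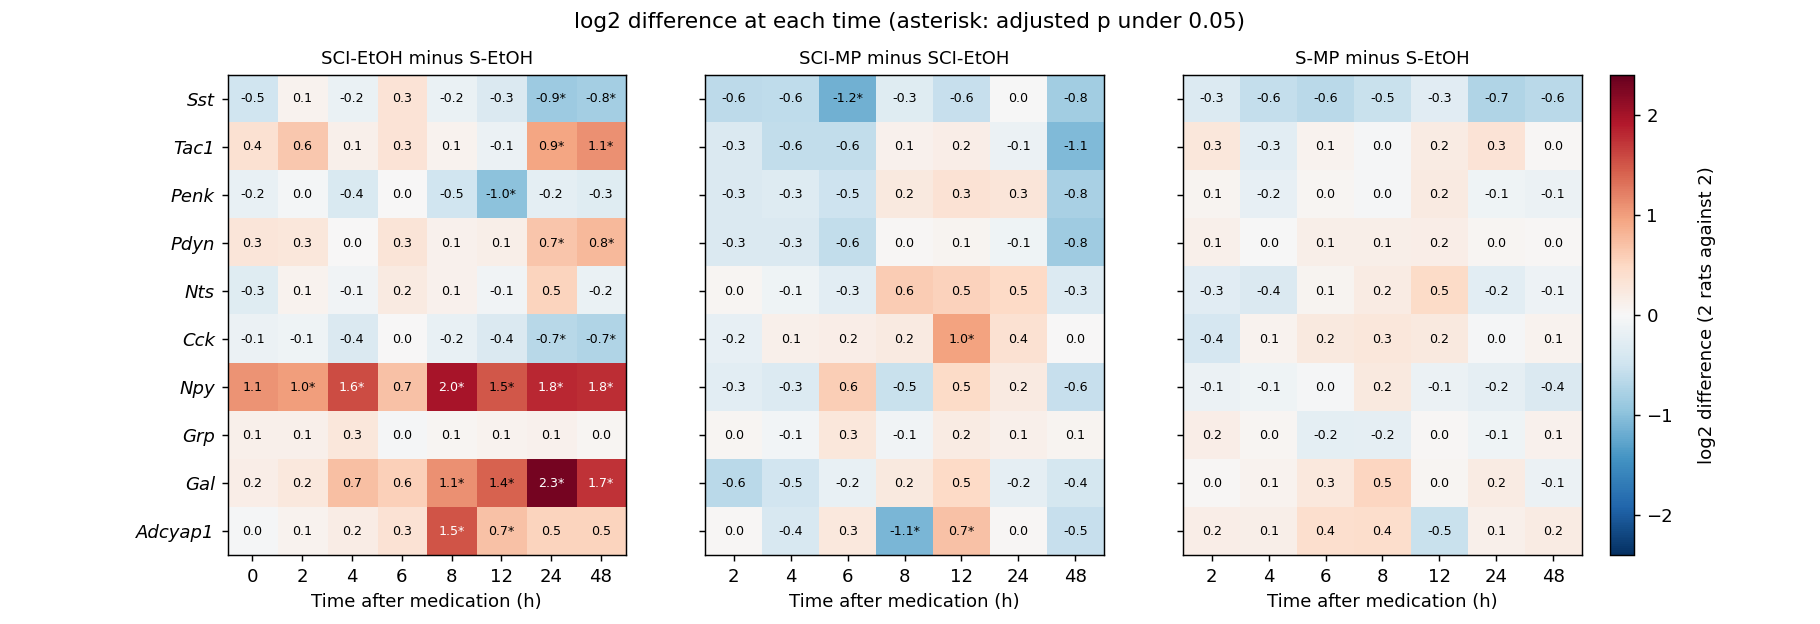
Difference of log2 values at each time after medication (hours) for the 10 precursors, coloured from blue (lower) to red (higher), for injury without MP, MP in injured cord and MP in sham cord, each from 2 rats against 2; an asterisk marks an adjusted p under 0.05. Npy is higher from 2 h on except at 6 h, Gal from 8 h on, Adcyap1 at 8 and 12 h and Tac1 and Pdyn at 24 and 48 h, and no member is called for MP in sham cord.

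Contusion was also compared among rats that all had MP, as SCI-MP minus S-MP over the same 7 times (14 rats against 14; no array is shared with the comparison above). Npy was 2.88-fold and Gal 1.80-fold higher, Adcyap1 1.21-fold, Nts 1.20-fold and Grp 1.15-fold higher, and Penk was 1.39-fold, Sst 1.26-fold and Cck 1.12-fold lower. Again 8 of 10 were called, against 55% of all genes (21.7% higher and 33.3% lower). Npy in SCI-MP ran from -0.15 over a median of 0.74 to 1.52 and in S-MP from -0.91 over a median of -0.70 to -0.32, with no overlap; 0.314% of all genes separated upward in this way. Gal in SCI-MP reached 1.46 and 2.02 at 24 h but was -0.59 and -0.14 at 2 h, below both S-MP rats of that time. Adcyap1 in SCI-MP had its highest values at 12 h (1.85 and 2.04), and without 12 h its difference was 0.00 and not called. Nts had its highest values in SCI-MP at 24 h (0.59 and 1.14, against -0.65 and -0.13 in S-MP), and without 24 h its difference was 0.10 and not called. The Nts call was lost in 10 of 42 alternatives, among them 7 of the 28 fits without 1 rat (0.22 to 0.23; the first S-MP rat of 4, 6, 12 or 24 h and the second SCI-MP rat of 4, 12 or 24 h). Tac1 and Pdyn, which rose without MP, had differences of 0.00 and -0.07 here. The Sst difference of -0.33 turned to 0.08 after quantile normalization, and the call for Cck (-0.17, adjusted p = 0.039 by limma) was lost in 22 of 42 alternatives. Of all genes called, 39.5% were higher here, against 56.4% after quantile normalization and 50.2% with each array's median set to 0.

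The effect of MP in injured cord was taken as SCI-MP minus SCI-EtOH over the 7 times, so that it shares the SCI-EtOH rats with the first comparison and the SCI-MP rats with the second, and its values are not independent of theirs. Sst was 1.5-fold, Tac1 1.28-fold and Pdyn 1.24-fold lower with MP, and Cck was 1.18-fold higher. These 4 of 10 compare with 42.1% of all genes, 10.4% higher and 31.7% lower. Of the called, 24.6% were higher (47.6% after quantile normalization, 40.2% with each array's median set to 0). The median of the 10 was -0.15 beside -0.06 for all genes. Of the marker lists, 7 of 8 neutrophil and 3 of 5 erythrocyte and platelet genes were lower with MP, and of 14 neuron structure genes 2 were higher and 2 lower. Their part in the values below was not tested.

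Sst in SCI-EtOH ran from -0.82 over a median of 0.16 to 1.08 and in SCI-MP from -1.38 over a median of -0.44 to 0.11. The groups overlapped as a whole, but both SCI-MP rats lay below both SCI-EtOH rats at 5 of 7 times. The difference was -0.58 (SE 0.11, adjusted p = 5.8e-05), and at single times it was called at 6 h (-1.15), where the SCI-EtOH duplicates agreed least. Tac1 (-0.35, SE 0.12, adjusted p = 0.015), Pdyn (-0.31, SE 0.09, adjusted p = 0.0090) and Cck (0.23, SE 0.07, adjusted p = 0.0072) moved less. After quantile normalization these 3 were at -0.21, -0.15 and 0.18 and not called, and without 48 h Tac1 and Pdyn were at -0.24 and -0.22 and not called. Without 12 h Cck was at 0.11 and not called. At 48 h Tac1 was -0.21 and -0.02 and Pdyn 0.01 and 0.03 in SCI-MP, below both SCI-EtOH rats in each case.

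By phase, Sst (-0.79), Tac1 (-0.51), Gal (-0.43) and Pdyn (-0.43) were lower with MP at 2 to 6 h, 4 of 10 against 26.6% of all genes (13.9% of the called were higher, against 47.4% after quantile normalization and 39.1% with each array's median set to 0). Without 6 h, Sst and Gal stayed called, and Tac1 (-0.47) and Pdyn (-0.34) did not. Sst kept its call in 22 of 23 alternatives, but Gal lost it in 13 of 23 and Tac1 and Pdyn in 14 of 23 each. For Gal these included 7 of the 12 fits without 1 rat (the first SCI-EtOH rat of 2 and 6 h, the second of 4 h, the first SCI-MP rat of 2 and 6 h and either SCI-MP rat of 4 h, at -0.44 to -0.35). The alternatives also hold 1 fit with the injury difference at 0 h added (-0.27 for Gal). As both groups were injured, that fit is no check of MP. The methods' analysis of variance and Tukey's test is not among the 23 alternatives and called no member at 2 to 6 h, Sst included. Tac1 lost its call without the second SCI-EtOH rat of 2 or 6 h, the first of 4 h, either SCI-MP rat of 2 h or the first of 4 or 6 h (-0.51 to -0.34). Pdyn lost it without the second SCI-EtOH rat of 2 h, the first of 4 or 6 h or the first SCI-MP rat of any of the 3 times (-0.42 to -0.31). At 8 to 12 h Cck (0.59) and Nts (0.58) were higher, 2 of 10 against 17.7% of all genes. The call for Nts was lost in 10 of 18 alternatives, down to 0.30 with the difference at 0 h added. Among them were 4 of the 8 fits without 1 rat (the second SCI-EtOH or SCI-MP rat of 8 or 12 h, at 0.42 to 0.54). Without 12 h Cck was 0.22 and not called. At 12 h SCI-MP rats had 0.40 and 0.72 for Cck and SCI-EtOH rats -0.62 and -0.19. At 24 to 48 h no member was called (limma; 3 at an unadjusted p under 0.05), against 13.9% of all genes. Adcyap1 was not called in any phase, and its differences at 8 and 12 h pointed in opposite directions. At 8 h SCI-MP rats had 0.41 and 0.21, below the 1.77 and 1.03 of SCI-EtOH (-1.09, adjusted p = 0.0043), and at 12 h they had 1.85 and 2.04, above the 1.56 and 0.94 of SCI-EtOH (0.70, adjusted p = 0.047). Besides Adcyap1, single times gave Sst at 6 h and Cck at 12 h. Of all genes, 4.5% were called at 2 h, 2.07% at 4 h, 11.4% at 6 h, 6.65% at 8 h, 16.2% at 12 h, 6.35% at 24 h and 2.6% at 48 h.

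In sham cord MP lowered Sst and no other member, as S-MP minus S-EtOH over the 7 times (14 rats against 14, the sham rats of the comparisons of injury). S-EtOH rats ran from 0.00 over a median of 0.33 to 0.57, and S-MP rats from -0.58 over a median of -0.25 to 0.42. The highest S-MP value was 1 rat at 2 h. At the other 6 of 7 times both S-MP rats lay below both S-EtOH rats. The difference was -0.53 (SE 0.11, adjusted p = 0.0015), a 1.44-fold fall, and only 18 of the 14324 genes had a lower value. Among the other 9 members the differences ran from -0.10 (Npy) to 0.14 (Gal). So 1 of 10 was called, against 9.85% of all genes (5.63% higher and 4.22% lower). No phase gave a call for any member (limma; Sst alone at an unadjusted p under 0.05, at 2 to 6 h and at 24 to 48 h), with -0.52 at 2 to 6 h, -0.40 at 8 to 12 h and -0.68 at 24 to 48 h for Sst, at 1.17%, 5.11% and 0.154% of all genes called. At single times no member was called either, among 0.0279% of all genes at 2 h, 0.0489% at 4 h, 0.0768% at 6 h, 0.691% at 8 h, 0.559% at 12 h, 0.0349% at 24 h and 0% at 48 h. Haemoglobin markers fell in sham cord with MP too (Hbb -0.90, Alas2 -0.73), and their part in the Sst value was not tested.

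**Figure D3:**
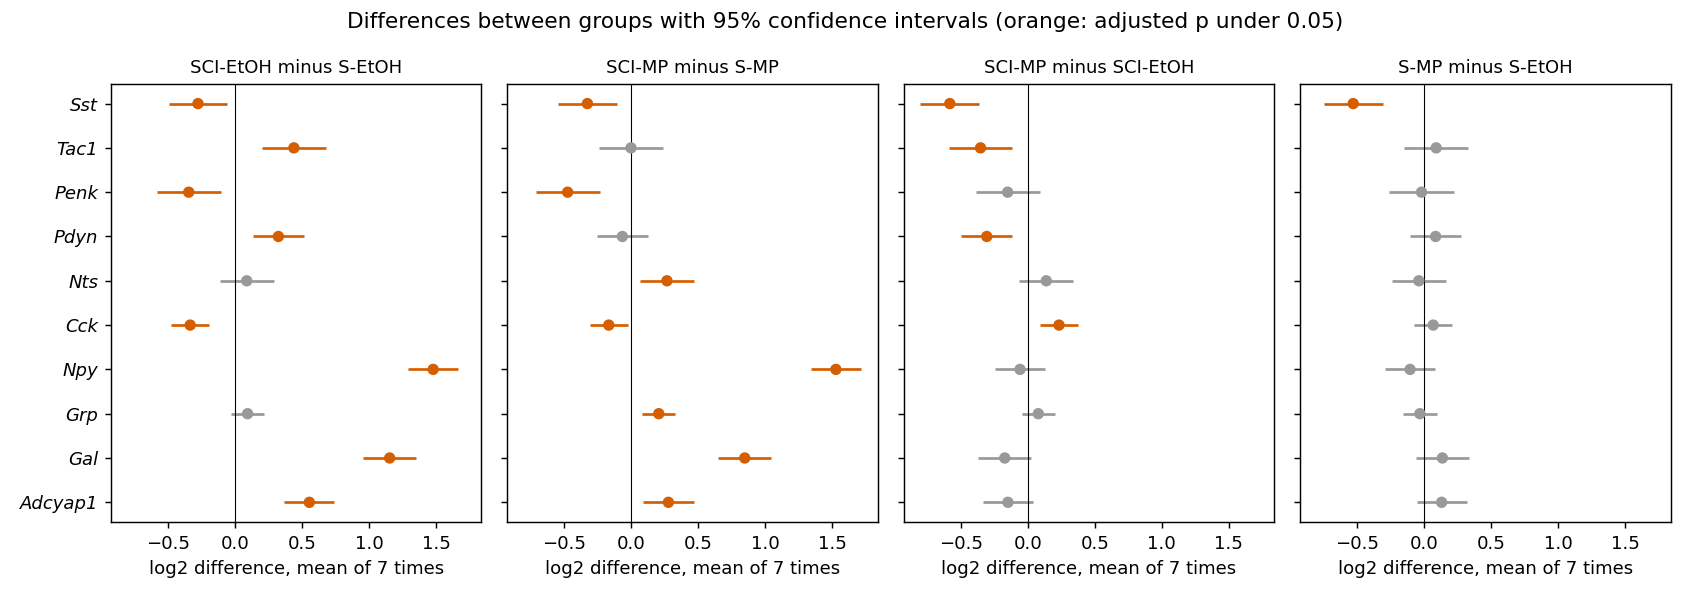
Difference of log2 values averaged over 7 times for the 10 precursors in 4 comparisons, each from 14 rats against 14; points are the fitted differences, bars are 95% confidence intervals, and orange marks an adjusted p under 0.05. Npy and Gal lie far to the right in both comparisons of injury, and Sst lies to the left of 0 in all 4.

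Whether MP acted differently in injured and in sham cord was tested as the difference between the MP effects. Tac1 (-0.44, SE 0.16, adjusted p = 0.045) and Pdyn (-0.39, SE 0.13, adjusted p = 0.028) were called, 2 of 10 against 25.7% of all genes, 5.45% higher and 20.2% lower (of the called, 21.2% were higher, against 46.8% after quantile normalization and 39.2% with each array's median set to 0). In sham cord MP moved these genes by 0.09 each, which did not pass the test. The call for Tac1 was lost in 38 of the 56 fits that left out 1 array (-0.53 to -0.36) and that for Pdyn in 3 of 56 (-0.48 to -0.31). Both were lost after quantile normalization (-0.36 and -0.28). For Sst the interaction was -0.05 with a 95% confidence interval from -0.36 to 0.26, so that a difference between its falls in injured and in sham cord was not detectable within these bounds.

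Among themselves the 10 genes were compared over the 30 group and time means, which share the injury contrast and the arrays. The highest Pearson r were 0.92 for Tac1 and Pdyn and 0.83 for Npy and Gal, followed by 0.66 for Sst and Penk, 0.63 for Gal and Pdyn, 0.60 for Npy and Grp and 0.58 for Gal and Tac1. The lowest were -0.57 for Npy and Penk and -0.51 for Gal and Sst. Over all genes, the means most like Tac1 were those of Pdyn, Dgcr8 (0.87) and Gmppb (0.85), and those most like Pdyn were Tac1, Gmppb (0.91) and Dgcr8 (0.90). For Sst they were Vamp2 (0.93), a synaptic vesicle protein, Ubald1 (0.92) and Nnat (0.91). For Penk they were Crmp1 (0.88), Stk25 (0.87) and Srsf12 (0.86), and for Cck they were Gca, Adhfe1 and Rgs4 (0.80, 0.80 and 0.79). For Npy they were Ybx3 (0.93), Tinagl1 (0.91) and Fyco1 (0.90). Gal was most like Bmp2 (0.95), Clec4e (0.93) and Tnfrsf10b (0.92), and Adcyap1 most like Il1rl1 (0.93), Tll1 (0.88) and the haptoglobin gene Hp (0.87). For Nts and Grp the closest genes were Sub1 (0.65) and Krt82 (0.83).

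The other genes of peptide signalling give the setting for these values. Among 31 other peptide precursors measured, 14 rose and 9 fell with injury without MP, where 35.1% of all genes were higher and 27.5% lower, so that the counts alone do not set these precursors apart. Trh, the precursor of thyrotropin-releasing hormone, rose by 1.73 on the log2 scale and Adm, the precursor of the vasodilator adrenomedullin, by 1.22, while Uts2, the urotensin II precursor of motor neurons, had -1.12 and Calca, which encodes CGRP, -0.61. From the early to the late times Trh gained 3.28, more than any member. With MP in injured cord Adm was higher (0.75) and Trh lower (-0.53).

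The list of receptors of the 10 peptides and of their families went mostly down. Of 24 measured, 17 fell and 2 rose with injury without MP, with a median of -0.22, where 27.5% of all genes were lower and 35.1% higher. The lowest was Oprl1 (-1.09) of the opioid receptor family, whose ligand nociceptin is not among the 10 peptides. Tacr1, the substance P receptor (-0.70), Adcyap1r1, the PACAP receptor (-0.68), and Sort1, a sorting receptor that binds neurotensin (-0.59), followed. The kappa opioid receptor Oprk1, on which dynorphins act, had -0.54, and the galanin receptor Galr1 had 0.01 and was not called. The somatostatin receptors split, as Sstr1 (-0.49) and Sstr2 (-0.29) fell and Sstr3 (0.19) and Sstr4 (0.58) rose. With MP in injured cord 11 of the 24 were lower, Sstr4 (-0.49) among them, and 2 higher, where 31.7% of all genes were lower and 10.4% higher. Of all genes called there, 24.6% were higher, against 47.6% after quantile normalization, so that the direction of these counts depends on scaling. In sham cord none of the receptors was called, against 9.85% of all genes.

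Of 13 genes of peptide processing and dense-core vesicles, 12 fell and 1 rose with injury without MP, with a median of -0.72. The shares over all genes in this comparison were 27.5% lower and 35.1% higher. Cadps, which primes dense-core vesicles for release, had -1.91, the granule protein Scg5 -1.24, the convertase Pcsk2 -1.21 and the chromogranin Chga -1.11. The riser was Furin, a convertase of nearly all cells (0.91). Pcsk1n, an inhibitor of convertase, was lower with MP in injured (-0.66) and in sham cord (-0.44). Of 10 peptide-degrading enzymes 4 rose, led by Anpep (1.03), and 4 fell, with Lnpep at -0.63.

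In the same comparison, with 27.5% of all genes lower and 35.1% higher, genes of inhibitory neurons fell. Of 8 GABA and glycine genes, 7 fell and none rose, with the glycine receptor Glra1 at -1.96 and the glycine transporter Slc6a5 at -1.88. Of 7 genes of excitatory dorsal horn neurons, 3 fell and 1 rose, with the glutamate transporter Slc17a6 at -1.49 and Calb2 at -1.30. Of 7 markers of sensory neurons of the dorsal root, 2 fell and 1 rose, with a median of 0.00, and the list mean ran from -0.05 to 0.15 in S-EtOH and from -0.17 to 0.22 in SCI-EtOH. Factors that act on promoters of peptide genes went the other way: 8 of 10 rose and 1 fell, with Atf3 at 2.81, Egr1 at 2.29, Fos at 1.93 and Junb at 1.59. Whether these factors acted on any of the 10 members was not tested. When the mean of the neuron structure list was taken off each array, all 10 members were higher in injured cord without MP, but so were 99.2% of all genes, so that this scale says nothing of the peptides in particular.

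**Figure D4:**
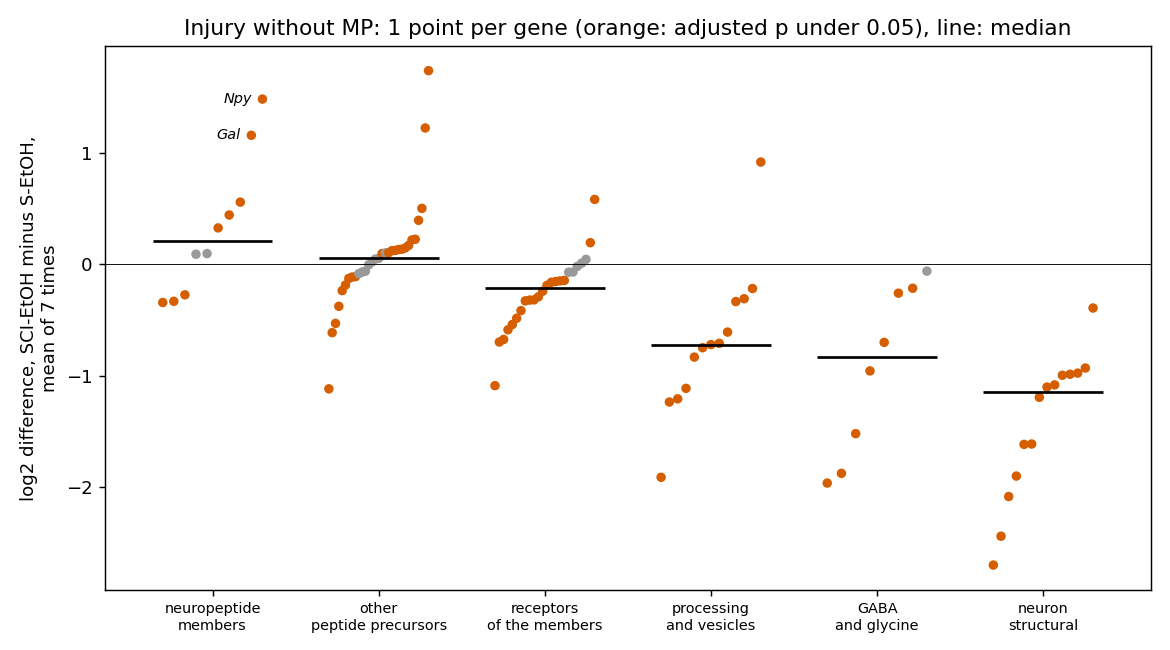
Difference of log2 values between SCI-EtOH and S-EtOH over 7 times for the 10 precursors and 5 related gene lists, with 1 point per gene (orange, adjusted p under 0.05; grey, not called) and a line at the median of each list. The precursors have a median of 0.21 with Npy and Gal on top, while receptors (-0.22), processing and vesicle genes (-0.72) and neuron structure genes (-1.15) lie below 0.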

How the data were processed

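RNA of the cord of 60 rats was measured on 1 array each (Affymetrix Rat Gene 1.0 ST). The authors summarized the probes by RMA, normalized each chip and each gene with GeneSpring software and deposited log2 values. The reference of the centring and the genome build were not given in the sources used here. Background brightness was not part of these values, so that dim probe sets were not filtered.

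All 60 columns were matched to a rat by title, and groups and times came from the labels. Probe sets with a CV of duplicates under 50% on the linear scale in at least 16 of 30 pairs were kept (27338 of 27342). Probe sets with 1 symbol in the platform annotation (15097; 323 had several and 11922 none) were named, with symbols updated by gene ID for 15067, and averaged to 14324 genes. A linear model with a mean for every combination of group and time was fitted to the 60 arrays with limma 3.58.1 (R 4.3.3; 30 residual degrees of freedom), and contrasts were called at a Benjamini-Hochberg adjusted p under 0.05 over all genes. The fits were tested on simulated data. Correlations were taken over the 30 group and time means, with no test.

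The 10 members are all named. Of each further list the up to 4 genes past the threshold with the largest differences in a comparison are named, and for each member called for injury without MP the 3 genes of highest Pearson r. Oprk1, Galr1, the other somatostatin receptors, the blood markers and the closest genes of Nts and Grp were added after their values were seen. The members and lists were chosen with earlier results of these data known.

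Alternatives were quantile normalization between arrays, each array's median set to 0, the duplicate number as a block, array weights, 1 probe set per gene, no noise filter, a fit on the compared groups alone, leaving out each array or time, taking off the difference at 0 h, and the methods' analysis of variance with Tukey's test. The block entered only as an alternative. Tukey's test was scored only by the number of members called, so that tallies of alternatives for a single gene leave it out. For MP in injured cord the difference at 0 h was added, which is no check of MP because both groups were injured.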

Additional observations from a re-analysis of the deposited data

Results flagged for a closer look

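The following 6 values differ between groups of rats by a test of the difference itself (limma, 30 residual degrees of freedom), and no explanation was tested for any of them. Between 2 to 6 h and 24 to 48 h, the injury difference without MP gained 1.5 for Gal and 0.70 for Npy, and it changed by -0.93 for Sst and by -0.54 for Cck. After quantile normalization it was -0.63 for Sst and -0.20 for Cck, neither called, and leaving out 6, 24 or 48 h ended the call for Cck as well. For Npy it was -0.01 after quantile normalization and not called, and direction and call held in 28 of 32 alternatives. The effect of MP was lower in injured than in sham cord by -0.44 for Tac1 and by -0.39 for Pdyn. These calls held in 25 of 70 alternatives for Tac1 and in 62 of 70 for Pdyn, and both were lost after quantile normalization. In the SCI-EtOH rats of 24 h, the second rat had 1.43 for Tac1 and 1.37 for Pdyn and the first 0.26 and 0.19.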

How the results depend on the processing

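Of 10 members, the number called changed by more than 1.5 times as follows, in the order of the alternatives. Quantile normalization gave 5 calls for injury with MP, 1 for MP in injured cord (2 at 2 to 6 h and 0 at 8 to 12 h), 2 for MP in sham cord (1, 2 and 1 in the 3 phases), 1 for the interaction, 1 for late minus early and 2 at 0 h. It turned Sst for injury with MP to 0.078 and Npy for late minus early to -0.013. Each array's median set to 0 gave 0 for the interaction and 1 for MP in injured cord at 2 to 6 h. Array weights gave 1 for MP in injured cord (1 at 2 to 6 h and 1 at 8 to 12 h), 1 in each phase of MP in sham cord and 1 at 0 h. A fit on the compared groups alone gave 2 for MP in injured cord (2 at 2 to 6 h and 1 at 8 to 12 h), 2, 1 and 1 in the phases of MP in sham cord and 2 at 0 h, and leaving out the 0 h arrays gave 1 for the interaction. The methods' analysis of variance and Tukey's test gave 4 for injury without MP (0, 2 and 4 in the phases), 2 for MP in injured cord (0, 1 and 1) and 0 for MP in sham cord. These are counts, and the cause was not tested.

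Without 2 h the interaction had 0 calls and MP in injured cord at 2 to 6 h had 1. Without 4 h the interaction, injury without MP at 2 to 6 h and MP in injured cord at 2 to 6 h had 1 each. Without 6 h these had 0, 1 and 2, and late minus early had 2. Without 12 h the interaction had 4 and MP in injured cord at 8 to 12 h had 1. Without 24 h late minus early had 2 and MP in injured cord at 24 to 48 h had 2, and without 48 h MP in injured cord had 2 and the interaction 1. With the difference at 0 h taken off, injury without MP had 1 call (0, 2 and 1 in the phases), with Sst at 0.21 and Grp at -0.035. With it added, MP in injured cord had 0 (0 at 2 to 6 h and 0 at 8 to 12 h), with Tac1 at 0.020. Both groups of that comparison were injured, so that adding a difference between injured and sham rats no longer gives an MP effect. These last counts are therefore no check of MP. Leaving out 1 array at a time gave 7 to 9 calls for injury without MP (2 to 3, 3 to 4 and 6 to 7 in the phases), 6 to 8 for injury with MP, 4 to 5 for MP in injured cord (1 to 4, 1 to 3 and 0 to 3), 1 to 1 for MP in sham cord (0 in each phase), 0 to 3 for the interaction, 4 to 6 for late minus early and 0 to 0 at 0 h.

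The duplicate numbers did not pair the rats: among 43 pairs of groups their deviations correlated with a median of 0.0024 (-0.488 to 0.420), and 10 exceeded 0.1. With the number as a replicate block, MP in injured cord at 24 to 48 h had 1 call in place of 0, and no other count of calls moved by over 1.5 times. No noise filter and another choice of probe set moved no count by over 1.5 times. Over all alternatives, 401 counts stayed within 1.5 times and 111 did not, and of the single values 1829 kept direction and call, 204 lost the call, 2 gained one and 5 changed sign. The rise of Gal with injury without MP kept its call in 43 of 43 alternatives (0.96 to 1.31) and the fall of Sst with MP in sham cord in 42 of 42 (-0.93 to -0.49). These tallies for single genes leave out the methods' analysis of variance and Tukey's test. That alternative called no member for MP in sham cord, Sst included. With 2 rats per group and time and no signal over background, single times and dim genes are the least certain.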
